A study of Homo sapiens with 12 samples.

Results

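The messenger RNA levels of 9 genes that make and recycle cellular antioxidants were followed in 2 leukemia lines, MOLM-13 and THP-1, treated with Jiyuan oridonin A (JOA) or left as controls. The genes were GCLM, GCLC, SLC7A11, GSR, TXNRD1, SRXN1, NQO1, PGD and ME1. They were chosen by name as targets of the transcription factor NRF2, with earlier results of these data known. Each of the 9 symbols matched a row of the 20030 gene rows measured. Both are human lines of acute monocytic leukemia with a rearranged MLL gene. MOLM-13 cells carry the FLT3/ITD mutation, and THP-1 cells have wild-type FLT3. JOA is a diterpenoid of the ent-kaurene type from the plant Isodon rubescens. The treatment lasted 48 h by the labels and methods, while a legend of the study gives a longer time, at 0.5 μM JOA in MOLM-13 and at 2 μM in THP-1 cells, and was set against control cells of the same line, which per the study's methods received the solvent dimethyl sulfoxide. Each of the 4 groups had 3 libraries, numbered 1 to 3. Because the dose differed with the line, an effect of the line and an effect of the dose cannot be told apart. The study describes its experiments as repeated, but nothing in the sources says that the 3 libraries of a group came from separate cultures, so the p-values measure only the spread between these libraries, which may be technical.

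NRF2, encoded by NFE2L2, is held at a low level by KEAP1, which presents it to a CUL3 ubiquitin ligase for breakdown. Electrophiles and oxidants modify cysteines of KEAP1, NRF2 then escapes breakdown, enters the nucleus and, paired with a small MAF protein, binds antioxidant response elements near its target genes. In myeloid cells the products of these genes buffer the oxidants that the cells make themselves and dispose of reactive drugs. Their roles are divided between glutathione synthesis and recycling, the thioredoxin system, and the supply of NADPH, on which both systems run.

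In THP-1 cells, 8 of the 9 genes had a higher mean level with JOA, by 11.3% to 43.6%, while GCLC was 3.16% lower. The largest relative differences in FPKM (fragments scaled to transcript length and to the mapped fragments of the library) were those of ME1 (from 5.28 ± 0.775 to 7.58 ± 0.774, SD, n = 3), PGD (158 ± 6.20 to 223 ± 17.2), SRXN1 (15.3 ± 1.14 to 20.9 ± 0.867) and NQO1 (24.3 ± 2.10 to 32.6 ± 0.976). In MOLM-13 cells ME1, PGD, SRXN1 and NQO1 had smaller differences, with means 20.0%, 16.5%, 5.21% and 14.0% higher with JOA. SLC7A11, the cystine importer, had a 38.9% lower mean there. It was lower with JOA in all 3 numbered pairs of libraries, against 15.7% of all genes tested, although the groups overlapped. A difference between the lines was not established for any of the 9 genes. The differences were modest in size. No gene of the 9 reached the log2 fold change of 0.58 that a call required together with an adjusted p under 0.05, in either line.

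**Figure D1:**
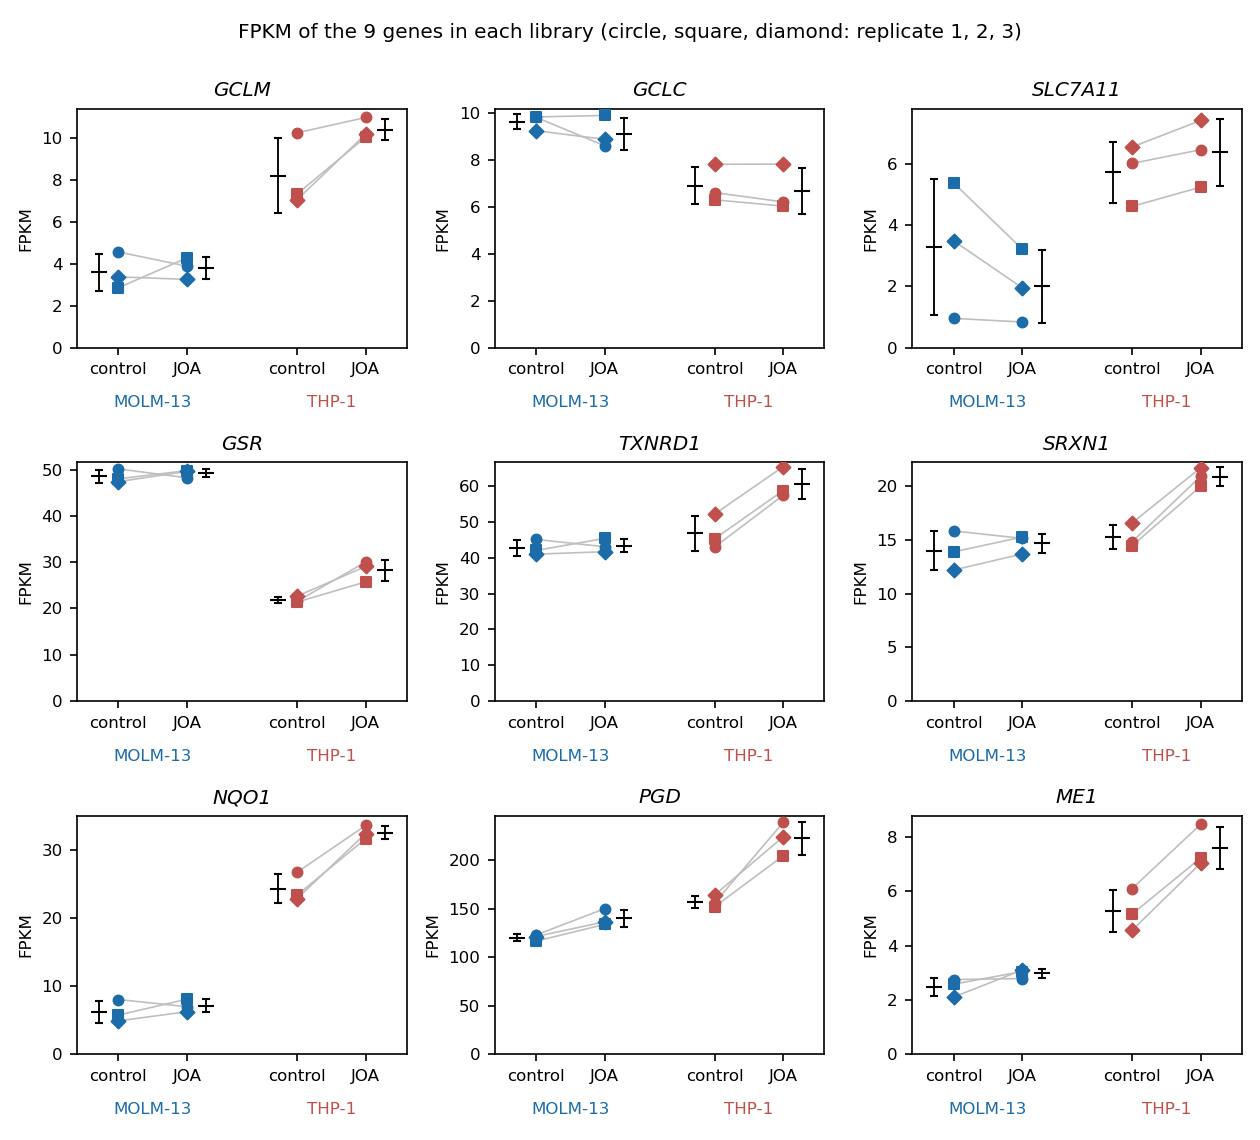
FPKM of each gene (vertical axes, each starting at 0) in the 3 control and 3 JOA libraries of MOLM-13 cells (blue) and THP-1 cells (red). Symbols mark the replicate number, grey lines join libraries of the same number, and black bars give the mean ± SD. In THP-1 cells the JOA libraries lie wholly above the control libraries for 6 of the 9 genes, against 14.6% of all genes tested. In MOLM-13 cells they do so for PGD and ME1 alone, against 5.1% of all genes tested.

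NRF2 acts through a short DNA element, which was sought in the promoters of these genes. Because the genes were chosen by name as NRF2 targets, its presence is no test of that choice. Sequence outside the windows described next was not searched. RefSeq promoter windows (build GRCh38.p14, 250 bases before to 50 bases after the annotated start) were at hand for 7 of the 9 genes, with 2 windows for TXNRD1. The windows of SLC7A11 and GSR were not analysed here. The core of the antioxidant response element, searched as TGACNNNGC on both strands, was present in 4 of the 7 genes (PGD, GCLM, ME1 and TXNRD1), and in 16.1% of the 27305 genes with such a window (13.3% of 35116 windows). In all, 7 matches were found in 5 windows. For each window the match farthest upstream is given with up to 40 bases on each side and with the element in capitals. Each run is written 5′ to 3′ on the strand of the gene, so an element that lies on the opposite strand appears as its reverse complement.
PGD, chr1:10398823-10398911, plus strand: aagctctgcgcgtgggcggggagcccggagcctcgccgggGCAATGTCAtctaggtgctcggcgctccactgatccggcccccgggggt
GCLM, chr1:93909431-93909504, minus strand: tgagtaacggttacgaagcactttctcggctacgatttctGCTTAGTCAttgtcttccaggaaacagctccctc
ME1, chr6:83431140-83431228, minus strand: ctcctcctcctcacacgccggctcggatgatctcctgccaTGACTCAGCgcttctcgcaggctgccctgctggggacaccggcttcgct
TXNRD1, chr12:104215640-104215728, plus strand: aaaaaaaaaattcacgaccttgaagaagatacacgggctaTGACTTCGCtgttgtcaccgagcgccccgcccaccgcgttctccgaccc
TXNRD1, chr12:104286890-104286978, plus strand: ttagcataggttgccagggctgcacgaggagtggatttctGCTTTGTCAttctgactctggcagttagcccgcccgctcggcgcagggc

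The printed match of PGD began 201 bases before the start, that of GCLM 34 bases, that of ME1 137 bases, and those of TXNRD1 99 and 102 bases before its 2 starts. The other matches, not shown with their flanks, were GCACCGTCA in ME1, at position 12 after the start, and GCTCCGTCA in TXNRD1, 8 bases before its first start. In ME1 the printed element TGACTCAGC also contains the AP-1 motif TGACTCA, while the match after the start does not. The AP-1 motif was found in 1 of the 7 genes and in 6.05% of all genes with a window. A variant with G in place of C, TGAGNNNGC, which does not match the core, was found in GCLM, TXNRD1 and NQO1. These are 3 of the 7 genes, and the variant was found in 21.6% of all genes. GCLC and SRXN1 had no match to any of the 3 motifs in these windows, which says only that these letters are not in them. A match describes the sequence and was not tied to binding of NRF2 by any measurement here.

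Before JOA, the levels of the 9 genes spanned a wide range in each line, and since FPKM is scaled to length, levels may be compared between genes. PGD was highest in both lines (120 ± 3.30 FPKM in MOLM-13 and 158 ± 6.20 FPKM in THP-1 control cells, SD, n = 3), and ME1 was lowest (2.48 ± 0.333 and 5.28 ± 0.775 FPKM). In MOLM-13 control cells the order below PGD was GSR, TXNRD1, SRXN1, GCLC, NQO1, GCLM, SLC7A11 and ME1, where GCLM overlapped SLC7A11 and SLC7A11 overlapped ME1. In THP-1 control cells it was TXNRD1, NQO1, GSR, SRXN1, GCLM, GCLC, SLC7A11 and ME1, where each of the last 4 overlapped its neighbour. Added together, the 9 genes came to 245 to 260 FPKM in MOLM-13 control libraries and 265 to 280 FPKM with JOA. In THP-1 cells the sum was 280 to 305 FPKM in control libraries and 369 to 413 FPKM with JOA. PGD was the largest part of each sum. Its mean was 120 FPKM in control and 140 FPKM in JOA libraries of MOLM-13 cells, and 158 and 223 FPKM in THP-1 cells. The sums thus mostly follow PGD and do not describe the other genes.

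The 2 lines differed in several of these genes without JOA, but no more often than in genes at large. By limma on log2(FPKM + 0.1), with Benjamini-Hochberg adjustment over 12635 genes, 4 of the 9 genes were called between control THP-1 and control MOLM-13 cells, against 44% of all genes tested. NQO1, a quinone reductase, was 3.89 times higher in THP-1 cells (log2 fold change 1.97 ± 0.16 SE, adjusted p = 1.30e-05). GCLM and ME1 were 2.28 and 2.12 times higher (log2 fold changes of 1.17 and 1.06, adjusted p = 0.000720 and 0.000183). GSR went the other way and was 2.22 times higher in MOLM-13 cells, where it ran from 47.4 to 50.1 FPKM, against 21.4 to 22.7 FPKM in THP-1 cells (log2 fold change -1.15, adjusted p = 6.14e-07). GCLC and PGD passed the adjusted p but not the fold, with log2 fold changes of -0.48 and 0.39. Over all genes, 25% were called higher in THP-1 cells and 19% lower. TXNRD1, SRXN1 and SLC7A11 overlapped between the lines, and the other 6 genes did not, against 74.8% of all genes. The SLC7A11 difference (log2 fold change 1.07, adjusted p = 0.0962) hung on the MOLM-13 libraries. Without control replicate 2 of MOLM-13 it was 1.57 with an adjusted p of 0.0175, and without control replicate 1 it was 0.38 with an adjusted p of 0.142. These control libraries also serve in the JOA comparisons below.

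The JOA comparison of each line was made by limma over all genes with a mean of at least 0.1 FPKM, and all 9 genes passed this filter in both lines. In THP-1 cells, 17 of 12712 genes (0.134%) were called, 7 of them higher with JOA (0.0551%), and 0 of the 9 genes were among them. On the adjusted p alone, without the fold, 38 genes (0.299%) passed, 24 of them higher (0.189%), and among these were PGD and SRXN1. These passes did not hold when a library was left out, where the adjusted p ran from 0.0708 to 0.217 for PGD and from 0.0597 to 0.219 for SRXN1, and the 17 calls became 0 to 1. Libraries of the same number deviated together from their group means, and in a fit that takes the number as a block, 1024 genes (8.06%) passed the adjusted p, 682 of them higher (5.37%). In that paired fit 7 of the 9 genes passed, all higher with JOA: GCLM, GSR, TXNRD1, SRXN1, NQO1, PGD and ME1. In the sentences that follow, a gene is said to have risen or fallen only where its adjusted p was under 0.05 in the paired fit. When each numbered pair was left out in turn, 6 to 7 of the 9 genes passed, and the gene that was lost, without pair 2 or without pair 3, was GCLM (adjusted p = 0.117 and 0.106). The combination of the paired fit with the adjusted p alone was chosen after the data were seen.

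Glutathione is built from cysteine, glutamate and glycine, and its first and limiting step is done by glutamate-cysteine ligase, a pair of a catalytic subunit (GCLC) and a modifier subunit (GCLM). In THP-1 cells the control libraries 1, 2 and 3 had 10.2, 7.32 and 7.04 FPKM of GCLM, and the JOA libraries had 11.0, 10.0 and 10.2 FPKM. Control library 1 stood apart from the other 2 and lay within the JOA range, so the groups overlapped, although JOA was higher in each pair. GCLM rose by a log2 fold change of 0.36 ± 0.13 (SE; adjusted p = 0.235 without the block and 0.0464 with it). GCLC had 6.61, 6.30 and 7.82 FPKM in control and 6.22, 6.03 and 7.83 FPKM in JOA libraries. These values overlapped almost entirely (log2 fold change -0.049, 95% interval -0.33 to 0.23, adjusted p = 0.875 and 0.618). The difference between the subunits themselves was not tested. In MOLM-13 cells GCLM had 4.56, 2.85 and 3.37 FPKM in control and 3.88, 4.28 and 3.25 FPKM in JOA libraries, with 2 of the 3 pairs lower. GCLC had 9.82, 9.84 and 9.25 FPKM against 8.61, 9.90 and 8.88 FPKM. Both genes overlapped between the MOLM-13 groups, at log2 fold changes of 0.097 and -0.079.

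GSR, glutathione reductase, returns oxidised glutathione to its reduced form with electrons from NADPH. In THP-1 cells it had 21.5, 21.4 and 22.7 FPKM in control and 30.0, 25.8 and 29.1 FPKM in JOA libraries. The groups were separate, with the lowest JOA library above the highest control library. GSR rose by a log2 fold change of 0.37 ± 0.07 (SE; adjusted p = 0.0719 without the block and 0.0123 with it). In MOLM-13 cells GSR had 50.1, 48.0 and 47.4 FPKM in control and 48.2, 49.8 and 49.6 FPKM in JOA libraries. The 95% interval of that difference ran from -0.11 to 0.15 on the log2 scale and that of THP-1 cells from 0.21 to 0.53. The interaction test given below did not establish a difference between the lines for GSR.

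SLC7A11 is the light chain of the antiporter that brings cystine into the cell in exchange for glutamate, and it is a target of ATF4, the transcription factor of amino acid shortage, as well as of NRF2. In MOLM-13 control libraries it had 0.956, 5.37 and 3.49 FPKM, and in JOA libraries 0.836, 3.21 and 1.95 FPKM. Library 1 was by far the lowest of both groups, and JOA was lower than control in each pair. The mean log2 fold change was -0.57, with an SE of 0.62 without the block and 0.13 with it. Its p in the paired fit was 0.00303 before adjustment and 0.323 after adjustment over 11693 genes, so the difference did not pass. Leaving out 1 library at a time without the block moved it between -1.26 (without control replicate 1) and -0.071 (without control replicate 2), while leaving out whole pairs moved it between -0.77 and -0.45. In THP-1 cells SLC7A11 had 6.01, 4.61 and 6.55 FPKM in control and 6.46, 5.24 and 7.41 FPKM in JOA libraries. Here JOA was higher in each pair, on average by 0.15 on the log2 scale, with an adjusted p of 0.674, or 0.143 in the paired fit, and the groups overlapped.

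The spread of SLC7A11 in MOLM-13 cells was shared by genes of the ATF4 pathway. Among ATF4 and genes known as its targets, 10 of 12 had their lowest value in library 1 of both the control and the JOA group (83.3%), against 2075 of all 11693 genes tested (17.7%). ASNS, asparagine synthetase, had 9.13, 32.9 and 14.1 FPKM in control and 8.23, 23.0 and 10.1 FPKM in JOA libraries. SESN2, a stress-induced regulator of nutrient signalling, had 4.33, 14.5 and 9.93 FPKM and then 4.76, 10.3 and 6.96 FPKM. In THP-1 cells 1 of the 12 genes had its lowest value in library 1 of both groups. This pattern was looked for after the SLC7A11 values were seen, and its part in the SLC7A11 result was not tested beyond the fits with the block and without each pair.

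**Figure D2:**
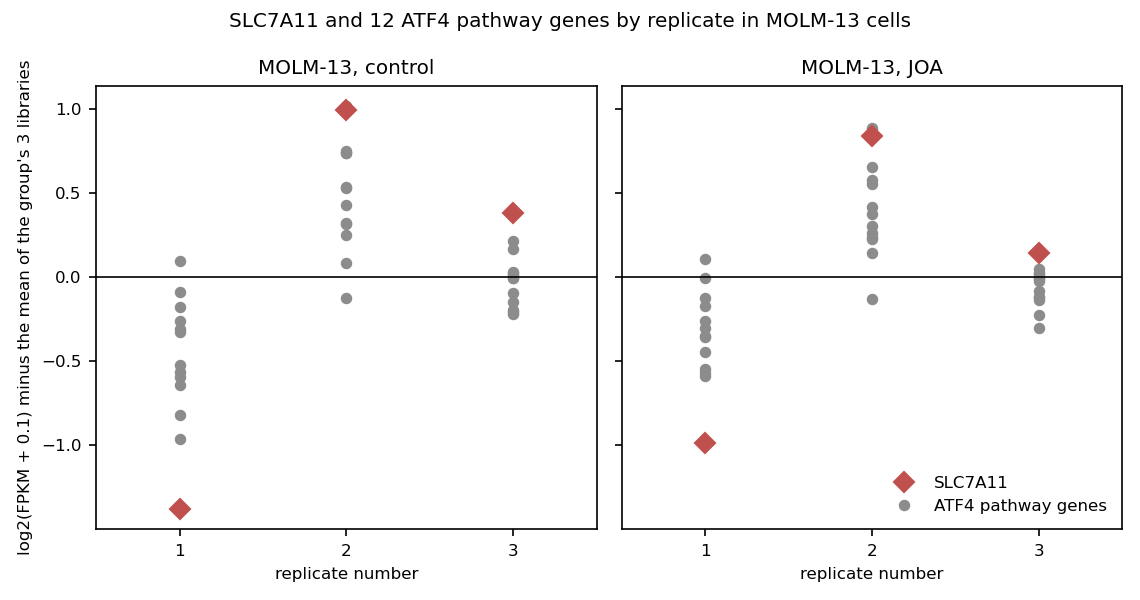
Deviation of SLC7A11 (red diamonds) and 12 ATF4 pathway genes (grey circles) from the mean of their group's 3 libraries, on the log2(FPKM + 0.1) scale, by replicate number in MOLM-13 control (left) and JOA (right) cells. SLC7A11 lies lowest in library 1 and highest in library 2 of the control group, and 10 of the 12 other genes are lowest in library 1 of both groups.

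The thioredoxin system reduces disulfides in proteins and recharges peroxiredoxins, and TXNRD1, the cytosolic thioredoxin reductase, feeds it with electrons from NADPH. In THP-1 cells TXNRD1 had 43.0, 45.3 and 52.2 FPKM in control and 57.4, 58.8 and 65.4 FPKM in JOA libraries. Library 3 was the highest of both groups, and the groups did not overlap. TXNRD1 rose by a log2 fold change of 0.37 ± 0.08 (SE; adjusted p = 0.0886 without the block and 0.00714 with it). SRXN1, sulfiredoxin, repairs peroxiredoxins that have been overoxidised. It had 14.8, 14.5 and 16.6 FPKM in control and 20.9, 20.0 and 21.7 FPKM in JOA libraries. All 3 JOA libraries were above the control libraries, and the rise of SRXN1 came to 0.45 ± 0.07 in log2 units (adjusted p = 0.0497 without the block and 0.00697 with it). In MOLM-13 cells neither gene separated the groups. TXNRD1 had 45.1, 42.0 and 41.0 FPKM in control and 43.1, 45.4 and 41.7 FPKM in JOA libraries, and SRXN1 had 15.8, 13.9 and 12.2 FPKM against 15.2, 15.3 and 13.7 FPKM. Their log2 fold changes there were 0.023 (95% interval -0.12 to 0.17) and 0.079 (95% interval -0.15 to 0.31).

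NADPH is made in the cytosol mainly by the oxidative pentose phosphate pathway, to which PGD, 6-phosphogluconate dehydrogenase, belongs, and by malic enzyme ME1, which turns malate into pyruvate. PGD had 156, 152 and 164 FPKM in THP-1 control and 239, 205 and 224 FPKM in THP-1 JOA libraries. The groups were well apart, and PGD rose by a log2 fold change of 0.50 ± 0.07 (SE; adjusted p = 0.0394 without the block and 0.00659 with it). ME1 had 6.10, 5.16 and 4.56 FPKM in control and 8.47, 7.23 and 7.04 FPKM in JOA libraries of THP-1 cells. It rose by 0.52 ± 0.12 in log2 units, the largest fold change of the 9 genes, with no overlap of the groups (adjusted p = 0.0914 without the block and 0.00804 with it). These were also the genes with separate groups in MOLM-13 cells. PGD had 123, 117 and 121 FPKM in MOLM-13 control and 150, 134 and 137 FPKM in JOA libraries, and ME1 had 2.75, 2.58 and 2.11 FPKM against 2.79, 3.05 and 3.10 FPKM. Neither passed there, with log2 fold changes of 0.22 and 0.26 and adjusted p of 0.295 and 0.440 in the paired fit. ME1 library 1 of the MOLM-13 control group differed from JOA library 1 by only 0.018 on the log2 scale.

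NQO1 reduces quinones by a transfer that avoids reactive semiquinones and is the classical reporter of NRF2 activity. It had 26.7, 23.4 and 22.9 FPKM in THP-1 control and 33.6, 31.7 and 32.4 FPKM in THP-1 JOA libraries. The 3 JOA libraries lay closer together than the control libraries and all above them, and NQO1 rose by a log2 fold change of 0.42 ± 0.07 (SE; adjusted p = 0.0543 without the block and 0.00792 with it). In MOLM-13 cells it had 8.06, 5.78 and 4.93 FPKM in control and 7.01, 8.13 and 6.27 FPKM in JOA libraries. Pair 1 was lower with JOA and the other pairs were higher (log2 fold change 0.21, 95% interval -0.19 to 0.61).

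**Figure D3:**
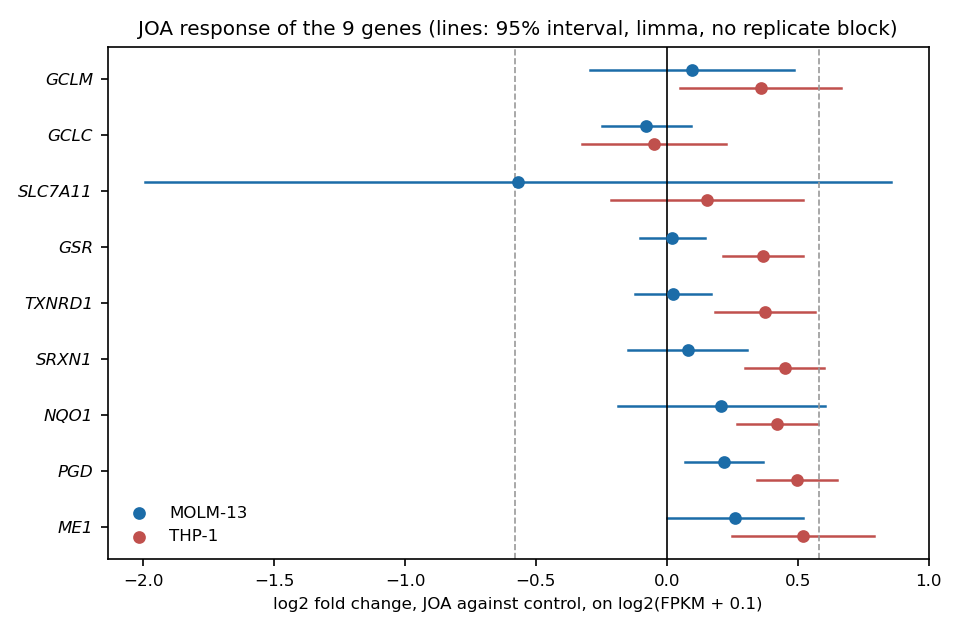
Log2 fold change of JOA against control on the log2(FPKM + 0.1) scale (horizontal axis) for the 9 genes in MOLM-13 cells (blue) and THP-1 cells (red), with 95% intervals from limma without the replicate block. Dashed lines mark 0.58 in either direction, the fold a call required. In THP-1 cells 8 of the 9 values are above 0 with a median of 0.37, and in MOLM-13 cells 7 of the 9 are above 0 with a median of 0.079.

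As a group, the 9 genes had a median log2 fold change, in THP-1 cells, of 0.37, against 0.023 over all genes tested, of which 56.7% were above 0. The 9 genes were chosen with earlier results of these data known, so the shares over all genes here are given as description only. The JOA libraries lay wholly above the control libraries for 6 of the 9 genes, against 14.6% of all genes, and wholly below them for 0 of 9, against 8.81%. The exact two-sided permutation test of such a gene gave p = 0.1, the smallest that 3 against 3 libraries allow. JOA was higher in 25 of the 27 numbered pairs, and in all 3 pairs for 8 genes, against 29.3% of all genes. In MOLM-13 cells the median was 0.079, against 0.0055 over all genes, of which 52.4% were above 0. No gene was called among 11693 (0%), and 481 genes (4.11%) had an unadjusted p under 0.05, or 1295 (11.1%) in the paired fit, which also called 0. The JOA libraries lay above the control libraries for 2 of the 9 genes, against 5.1% of all genes, and below them for 0 of 9, against 4.55%. Of the 27 pairs 16 were higher. All 3 pairs were higher for 2 genes, against 18.5% of all genes, and lower for SLC7A11, against 15.7%.

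The interaction of line and treatment, fitted over all 12 libraries, asked whether the response of THP-1 cells differed from that of MOLM-13 cells. The THP-1 difference exceeded the MOLM-13 difference for all 9 genes, against 55.4% of all genes tested. The median excess was 0.28 on the log2 scale, against 0.021 over all genes. The 9 values share the same 12 libraries. None of the 9 passed an adjusted p of 0.05, and neither did any of the 12626 genes tested (0%), of which 914 (7.24%) had an unadjusted p under 0.05. With the block, 6 genes (0.0475%) passed and the lowest adjusted p among the 9 were those of TXNRD1 (excess 0.35, adjusted p = 0.0717), GSR (0.35, 0.0858), SRXN1 (0.37, 0.0954) and SLC7A11 (0.72, 0.0998). A difference between the lines was thus not established for any of the 9 genes, and the doses differed as well.

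The regulators of NRF2 itself were nearly level. Of 10 such genes, 8 were higher in THP-1 cells with JOA and 2 lower, with a median log2 fold change of 0.071, and none passed in either fit. NFE2L2 had 33.3 ± 1.24 FPKM in control and 35.1 ± 1.27 FPKM in JOA THP-1 cells (SD, n = 3), 0.075 higher on the log2 scale (adjusted p = 0.285 in the paired fit). KEAP1, its inhibitor, had 27.3 ± 1.32 and 29.9 ± 1.60 FPKM (0.13, 0.0858 in the paired fit). MAFG, a small MAF partner, came nearest to passing, with 52.4 ± 0.851 and 58.7 ± 1.52 FPKM (0.16, 0.0553 in the paired fit). In MOLM-13 cells 6 of the 10 were higher and 4 lower, with a median of 0.022. The messenger level says nothing of the amount of NRF2 protein, on which KEAP1 acts.

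Other genes of the same pathways were taken from lists written with earlier results of these data known, so their counts are descriptive. Among 16 other glutathione genes, 10 were higher and 6 lower in THP-1 cells, and the median was 0.046. In the paired fit 3 rose, against 5.37% of all genes tested. These were MGST1, a membrane-bound glutathione transferase (log2 fold change 0.45, adjusted p = 0.0877 without the block and 0.00970 with it), GLRX, glutaredoxin (0.39, 0.251 and 0.0225), and SLC3A2, the heavy chain that pairs with SLC7A11 (0.35, 0.0835 and 0.0222). GSS, which completes glutathione, had 13.0 ± 0.737 FPKM in control and 14.9 ± 1.12 FPKM in JOA cells (0.20, 0.0523 in the paired fit). The peroxidase GPX4, which removes lipid peroxides, was close to level at 90.2 ± 1.96 and 88.6 ± 1.96 FPKM.

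Among 11 other genes of the thioredoxin and peroxiredoxin system, 7 were higher and 4 lower in THP-1 cells, the median was 0.016, and 1 was called in the paired fit. This was TXNIP, which binds and inhibits thioredoxin. It had 24.3, 31.1 and 31.0 FPKM in control and 15.6, 20.0 and 19.2 FPKM in JOA libraries. The groups did not overlap, and TXNIP fell by 0.65 in log2 units (adjusted p = 0.0755 without the block and 0.00224 with it, where 161 genes, 1.27%, were called, 81 or 0.637% of them higher). Thioredoxin itself, TXN, had 189 ± 2.86 and 195 ± 14.3 FPKM. Among 12 other genes of NADPH supply, 7 were higher and 5 lower, with a median of 0.062. Of these 12, 4 rose in the paired fit, against 5.37% of all genes tested. Among these, NADK, the kinase that makes NADP, rose by 0.29, and TKT and TALDO1, of the non-oxidative pentose phosphate pathway, by 0.23 and 0.20 (adjusted p = 0.0303, 0.0429 and 0.0277 in the paired fit). Of the mitochondrial and folate enzymes none passed. ME3, the mitochondrial malic enzyme, had a low level of 0.616 ± 0.0749 FPKM in control and 0.482 ± 0.0491 FPKM in JOA cells. It was lower with JOA in all 3 pairs, and the groups did not overlap. NNT, MTHFD1 and MTHFD2 had log2 fold changes of -0.14, -0.12 and -0.084, and IDH2, which was higher in all 3 pairs, had 0.11 (adjusted p = 0.108 in the paired fit).

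A list of 13 further NRF2 targets outside these pathways had 12 genes past the filter in THP-1 cells, of which 11 were higher and 1 lower, with a median of 0.42. In the paired fit 10 rose on the adjusted p alone, against 5.37% of all genes tested. Of these, 3 were called, against 0.637% of all genes called higher. OSGIN1, an oxidative stress-induced growth inhibitor, had 1.31, 0.967 and 1.75 FPKM in control and 2.87, 2.69 and 3.47 FPKM in JOA libraries (log2 fold change 1.14, adjusted p = 0.0698 without the block and 0.00659 with it). The other called genes were HMOX1, heme oxygenase (1.24, 0.00941 in the paired fit), and AKR1C1, an aldo-keto reductase (0.64, 0.00714 in the paired fit). SQSTM1, an autophagy receptor that also binds KEAP1, rose by 0.53 (adjusted p = 0.0420 without the block and 0.00765 with it), the ferritin chains FTL and FTH1 by 0.46 and 0.38, and EPHX1, an epoxide hydrolase, by 0.47 (adjusted p = 0.00804, 0.0133 and 0.0101 in the paired fit). ABCB6, a porphyrin transporter, had the negative value, -0.32 (adjusted p = 0.531 in the paired fit), at under 1 FPKM. That value came from pair 2 (-1.26 on the log2 scale), while pairs 1 and 3 were higher with JOA (0.24 and 0.071). In MOLM-13 cells 12 of the 13 were higher, with a median of 0.20, and none passed. HMOX1 had been reported from these libraries before, and the list was written with that known, so the count is not independent evidence of its direction.

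**Figure D4:**
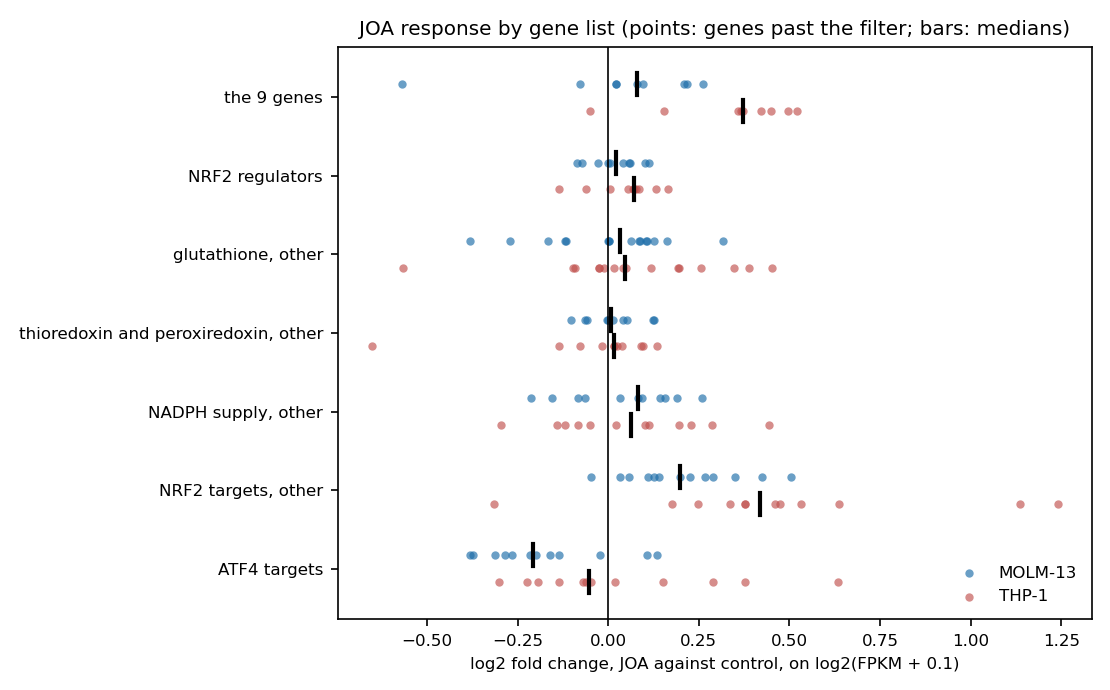
Log2 fold change of JOA against control on the log2(FPKM + 0.1) scale for the 9 genes and for the genes of 6 related lists, in MOLM-13 cells (blue, upper row of each list) and THP-1 cells (red, lower row). Each point is a gene past the filter and black bars are medians. In THP-1 cells the median was 0.37 for the 9 genes and 0.42 for the other NRF2 targets, and between -0.054 and 0.071 for the other lists.

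For ATF4 and its targets, the other route to SLC7A11, 5 of 12 genes were higher and 7 lower in THP-1 cells, with a median of -0.054. In the paired fit 3 rose and 1 fell. Of all genes tested, 8.06% passed in that fit, and 5.37% passed with a higher level. DDIT3, a stress transcription factor, had 10.7, 10.4 and 10.5 FPKM in control and 13.9, 13.3 and 13.9 FPKM in JOA libraries (log2 fold change 0.38, adjusted p = 0.0394 without the block and 0.00857 with it). TRIB3, a pseudokinase that restrains ATF4, rose by 0.64 and was called in the paired fit (adjusted p = 0.0543 without the block and 0.00534 with it). CEBPB rose by 0.29 and VLDLR, a lipoprotein receptor, fell by 0.30 (adjusted p = 0.0354 and 0.0203 in the paired fit). In MOLM-13 cells 2 of the 12 were higher and 10 lower, with a median of -0.21, and none passed.

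The genes whose pattern was most like the mean of the 9 genes were sought among 9231 genes, by Pearson correlation over the 12 libraries after centring each line on its control mean. They were TCP11L1 (r = 0.958), CMAS (r = 0.949), OSGIN2 (r = 0.937), DDIT3 (r = 0.937) and ELK3 (r = 0.928). The points share libraries and the treatment. These genes were picked for following the 9 genes in the same libraries. Their r values and the adjusted p that follow are therefore given as a description only. OSGIN2, a relative of OSGIN1, rose by 0.36 in log2 units in THP-1 cells (adjusted p = 0.0294 in the paired fit), and its log2 fold change in MOLM-13 cells was 0.030 (adjusted p = 0.919 in the paired fit). TCP11L1 did not pass in THP-1 cells (0.23, adjusted p = 0.210 in the paired fit).

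Markers of myeloid cells were present in the libraries, but they cannot tell the labelled lines from other myeloid cells. The myeloid transcription factor SPI1 ran from 38.3 to 63.3 FPKM over the 12 libraries and LYZ, lysozyme, from 755 to 3292 FPKM, while CD14 did not exceed 0.978 FPKM. HBB was listed at 0 throughout and CD3E did not exceed 0.0293 FPKM. COL1A1, a marker of another cell type, reached 0.998 FPKM, slightly above the highest CD14 value. Of the 6 markers of other cell types, PECAM1, which monocytes also express, made up nearly all of the summed level. That sum was 23.2 to 26.1 FPKM in THP-1 control and 29.1 to 34.3 FPKM in THP-1 JOA libraries, and without PECAM1 it was 0.258 to 1.25 and 0.216 to 0.486 FPKM. Of 9 myeloid markers, 4 were higher and 5 lower with JOA in THP-1 cells, with a median of -0.036. In the paired fit 2 rose, ITGAM and CD33 (log2 fold changes of 0.71 and 0.29, adjusted p = 0.0348 and 0.0342 in the paired fit) and 1 fell, MPO (-0.64, 0.00659 in the paired fit). Of all genes tested, 8.06% passed in that fit, and 5.37% passed with a higher level. The part of the markers in the results on the 9 genes was not tested. In bulk libraries a shift in the mixture of cells and a shift in RNA per cell cannot be told apart.

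The 9 genes are protein coding and, in GENCODE release 29 on GRCh38 (hg38), lie at chr1:93885205-93909456 (GCLM), chr6:53497341-53616970 (GCLC), chr4:138164097-138242349 (SLC7A11), chr8:30678061-30727999 (GSR), chr12:104215779-104350305 (TXNRD1), chr20:646615-653370 (SRXN1), chr16:69706996-69726951 (NQO1), chr1:10398592-10420144 (PGD) and chr6:83210389-83431071 (ME1). PGD and TXNRD1 are on the plus strand and the others on the minus strand. GCLM, GSR and PGD overlap no other annotated gene. TXNRD1 shares its strand with RPL18AP3 and EID3, SRXN1 with AL121758.1, and GCLC with AL033397.1. SLC7A11, NQO1, ME1, GCLC and TXNRD1 have a gene on the opposite strand. PGD has an annotated pseudogene, PGDP1. How reads of overlapping genes or of pseudogenes were assigned is not given in the sources used here, so these values may hold some of each other's reads.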

How the data were processed

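Total RNA of the 12 samples was made into stranded mRNA libraries and sequenced in pairs. The authors deposited 1 table of FPKM values per gene and library, scaled by them to transcript length and to mapped fragments. Per the labels, Trimmomatic, HISAT2, Cufflinks and HTSeq were used with the build hg38, with no versions or parameters given. The FPKM values were used as deposited. Total depth is unknown, so counting intervals are not given. The depth of a library relative to control replicate 1 of its line, from the most common ratio of values under 0.1 FPKM, was 0.881 to 1 in MOLM-13 and 0.931 to 1.07 in THP-1 cells, and the FPKM of a library added up to between 291127 and 325023.

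For each comparison, genes with a mean of at least 0.1 FPKM were kept and log2(FPKM + 0.1) was fitted with R 4.3.3 and its package limma 3.58.1 (lmFit and a trended eBayes). Fold changes on this scale understate the change of low genes. A gene was called at an adjusted p (Benjamini-Hochberg, all genes tested) under 0.05 with a log2 fold change of 0.58 or more in size, or at that p alone for the interaction. The authors' own test, DESeq, takes counts and could not be run on FPKM. The script was tested on simulated data. Exact permutation tests were made in Python 3.11.15 with scipy 1.17.1.

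The replicate numbers come from the sample titles. Deviations from the group means of same-numbered control and JOA libraries correlated at 0.264 to 0.398 in MOLM-13 and 0.139 to 0.319 in THP-1 cells, and those of different numbers at -0.256 to 0.0168 and -0.259 to -0.0280. The numbers were therefore taken to pair the libraries, and the blocked value is given where it changes a result. The fit without the block, set out in the design, decides what is counted as called unless the paired fit is named, and the paired fit decides which genes are said to have risen or fallen. Both adjusted p are given for each of the 9 genes in THP-1 cells.

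The genes and lists were chosen with earlier results of these data known. The genes named were the 9 genes, list members called with or without the block and up to 4 others of a list with the largest change, and the 5 genes most like the mean of the 9. GSS, GPX4, TXN, KEAP1, NFE2L2, MAFG, ASNS, SESN2, the ferritin chains and the list members past the adjusted p alone were named after their values were seen. The same holds for NNT, MTHFD1, MTHFD2 and IDH2. Alternatives covered the pseudocount, the filter, scaling, the trend, the block, a fit on all 12 libraries, the thresholds and leaving out libraries. The values of 1 list gene are not reported here.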

Additional observations from a re-analysis of the deposited data

Results flagged for a closer look

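SLC7A11 was lower with JOA in all 3 pairs of MOLM-13 libraries and higher in all 3 pairs of THP-1 libraries. The THP-1 log2 fold change exceeded the MOLM-13 value by 0.72 (limma, adjusted p = 0.910, or 0.0998 in the paired fit). SLC3A2, the partner chain of SLC7A11, had the same opposite pattern, with an excess of 0.51 (adjusted p = 0.700 and 0.0660 with the block). The MOLM-13 libraries had 48.1, 74.6 and 54.8 FPKM of SLC3A2 in control and 44.2, 68.5 and 46.1 FPKM with JOA, and the THP-1 libraries 47.9, 42.7 and 42.0 FPKM against 55.5, 52.5 and 60.5 FPKM. UGDH, which makes UDP-glucuronate, was lower in all MOLM-13 pairs and higher in all THP-1 pairs, with an excess of 0.30 (adjusted p = 0.691 and 0.157 with the block). GGT1, which breaks down extracellular glutathione, was higher in all MOLM-13 pairs and lower in all THP-1 pairs, with a difference of -0.34 (adjusted p = 0.640 and 0.137 with the block). For these 4 genes the difference between the lines did not pass the test. TRIB3 was looked at again because its difference between the lines, 0.83, passed with the block (adjusted p = 0.0462) and not without it (adjusted p = 0.626). Line and dose cannot be told apart in any of these.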

How the results depend on the processing

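In MOLM-13 cells 0 genes were called by limma, with the replicate block as well, and 1 without the filter. Among the 9 genes the log2 fold change of GCLM ran from -0.051 to 0.28, that of TXNRD1 from -0.010 to 0.062 and that of SRXN1 from -0.014 to 0.17 when a library was left out. In the paired fit without a pair GCLM ran from -0.14 to 0.26, TXNRD1 from -0.021 to 0.067 and GSR from -0.0024 to 0.059, and no other gene changed direction there. In THP-1 cells the 17 calls became 8 with a pseudocount of 1, 0 without the filter, 1 without the trend, 161 with the replicate block, 51 in one fit on 12 libraries, 38 on the adjusted p alone, and 0 to 1 when a library was left out. Of the 9 genes, 2 passed on the adjusted p alone and 7 with the block too, and 6 to 7 without a pair. That combined rule gave 1024 genes, and 1163, 583 and 732 without pair 1, 2 and 3. Over all alternatives the adjusted p of PGD lay between 0.00057 and 0.217 and that of SRXN1 between 0.00365 and 0.219, with both differences positive throughout. GCLC ran from -0.17 to 0.042 without single libraries. The interaction calls went from 0 to 1 with a pseudocount of 1 or upper-quartile scaling, 3 without the filter and 6 with the block, and GCLC ran from -0.086 to 0.12 without single libraries. Between the control groups the 5559 calls became 9000 on the adjusted p alone and 5593 with the block, and ran from 5448 to 5718 without a library, with 4 to 5 of the 9 genes called, or 6 on the adjusted p alone. The block changed no other call among the 9 genes. The causes of these moves were not tested. Unknown depth limits the statements on low genes.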
